A study of Mus musculus with 4 samples.

Results

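Splicing factor and hnRNP genes were compared between megakaryocytes, the marrow cells that shed platelets, of old and young mice. The genes were all rows of the deposited expression table whose symbol is Srsf followed by a number, or begins with Hnrnp or Snrp and a letter, leaving out names with -ps. This gave 44 of 56793 gene rows, made up of 13 Snrp, 11 Srsf and 20 Hnrnp genes, and 42 of them had a mean TPM of at least 1 and were tested. TPM divides reads by transcript length and sets the same sum for each library, so the sequencing depth is unknown. There were 2 old libraries (Mk_Old) and 2 young ones (Mk_Young), all of genotype Blc6 and from bone marrow megakaryocytes isolated by FACS, with no treatment, age or gate given in the labels. No label says that the libraries of a group came from different animals, so the p-values speak only of the spread among these 4 libraries, part or all of which may be technical.

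Introns are removed from pre-mRNA by the spliceosome, which is built from small nuclear ribonucleoproteins (snRNPs). The U1, U2, U4 and U5 snRNPs each hold a small RNA clasped by a ring of Sm proteins, while U6 carries a ring of related LSm proteins. The Snrp genes encode the Sm proteins and some proteins particular to U1 and U2. SR proteins, the products of the Srsf genes, bind exons through RNA recognition motifs and recruit the splicing machinery through domains rich in arginine and serine. The hnRNPs coat nascent transcripts, often act against SR proteins, and also serve in mRNA export, stability and translation. Many SR and hnRNP genes limit their own level by splicing in an exon or keeping an intron that sends the transcript to nonsense-mediated decay. A gene-level TPM sums such transcripts with the coding ones, and the levels below cannot tell them apart.

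The promoters of 4 members show the sequence context of genes that moved in opposite directions. Snrpe and Snrpg had the largest falls among the Snrp genes, Hnrnpab the largest fall among the Hnrnp genes, and Srsf5 was the member that rose. Each line gives the 250 bases before the annotated start, 5′ to 3′ on the gene's strand, from RefSeq on GRCm38.p6. The start and end are chr1:133610281-133610530 on the minus strand for Snrpe, chr6:86371290-86371539 on the plus strand for Snrpg, chr12:80945249-80945498 on the plus strand for Srsf5 and chr11:51606882-51607131 on the minus strand for Hnrnpab. Capitals mark matches on either strand to GGGCGG (the GC box, bound by Sp1), to CCAAT (bound by NF-Y), to CACGTG (the E box of Myc and its relatives) and to CCGGAAG (a core bound by ETS factors), and in Srsf5 one GGGCGG and one CCGGAAG match run into each other.
Snrpe: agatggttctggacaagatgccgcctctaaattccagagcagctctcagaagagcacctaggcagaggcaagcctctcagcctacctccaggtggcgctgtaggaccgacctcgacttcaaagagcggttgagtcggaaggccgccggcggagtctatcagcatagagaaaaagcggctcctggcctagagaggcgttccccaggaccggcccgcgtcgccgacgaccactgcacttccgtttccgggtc
Snrpg: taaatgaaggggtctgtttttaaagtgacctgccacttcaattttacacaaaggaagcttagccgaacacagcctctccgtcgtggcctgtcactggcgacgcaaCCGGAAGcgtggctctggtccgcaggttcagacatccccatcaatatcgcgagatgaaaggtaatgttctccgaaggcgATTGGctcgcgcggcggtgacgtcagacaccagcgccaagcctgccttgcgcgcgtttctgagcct
Srsf5: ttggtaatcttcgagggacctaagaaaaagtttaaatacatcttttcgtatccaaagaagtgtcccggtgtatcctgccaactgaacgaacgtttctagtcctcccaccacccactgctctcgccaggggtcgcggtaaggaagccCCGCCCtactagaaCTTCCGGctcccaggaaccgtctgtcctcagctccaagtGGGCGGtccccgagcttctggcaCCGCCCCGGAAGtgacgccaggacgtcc
Hnrnpab: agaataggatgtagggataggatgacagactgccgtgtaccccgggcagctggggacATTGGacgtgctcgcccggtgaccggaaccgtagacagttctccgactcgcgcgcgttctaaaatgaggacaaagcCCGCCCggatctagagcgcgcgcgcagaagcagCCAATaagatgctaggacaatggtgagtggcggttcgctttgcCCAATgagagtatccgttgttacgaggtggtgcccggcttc

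Srsf5 held 3 GGGCGG and 2 CCGGAAG matches, Hnrnpab held 1 GGGCGG and 3 CCAAT matches, Snrpg held 1 CCAAT and 1 CCGGAAG match, and Snrpe held none of the 4 in this window. RefSeq windows were found for 39 of the 44 genes, in 55 windows because some genes have several starts. GGGCGG lay in 92.9% of the 14 Srsf windows, 74.1% of the 27 Hnrnp windows and 35.7% of the 14 Snrp windows, against 32.7% of all 32851 promoter windows of that length. CCGGAAG lay in 42.9% of Srsf, 11.1% of Hnrnp and 21.4% of Snrp windows, against 6.91% of all. CCAAT lay in 21.4% of Srsf, 63% of Hnrnp and 28.6% of Snrp windows, against 33.8% of all. CACGTG lay in 0% of Srsf, 11.1% of Hnrnp and 14.3% of Snrp windows, against 6.02% of all. These are counts of letters, and the background holds promoters of non-coding genes too.

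A further sequence bears on how 1 value is read. Snrpg has a processed copy, Gm8186, whose whole 231-base transcript is identical to the open reading frame of 1 of the 4 Snrpg transcripts in GENCODE M21 on GRCm38, Snrpg being on chromosome 6 and the copy on chromosome 17. A read that lies wholly within this stretch cannot be assigned to either gene.
Snrpg and Gm8186: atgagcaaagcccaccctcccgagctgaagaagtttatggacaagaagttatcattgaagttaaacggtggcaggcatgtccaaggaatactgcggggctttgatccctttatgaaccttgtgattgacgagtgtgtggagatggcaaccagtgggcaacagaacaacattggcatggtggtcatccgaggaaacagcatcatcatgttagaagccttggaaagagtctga

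Between old and young libraries, 10 of 12 tested Snrp genes fell, 7 of 20 Hnrnp genes fell, and among 10 tested Srsf genes Srsf5 rose while Srsf1 and Srsf9 fell. Whether the families differ from each other was not tested. Values were compared as log2(TPM + 1) with limma across all 16073 genes that averaged 1 TPM or more, a scale that understates folds of low genes. P-values were two-sided and adjusted over all of these genes by the Benjamini-Hochberg method, and an adjusted p under 0.05 counted as passing. Of the 42 tested members 20 passed, 19 of them lower in old. Among all genes tested 19.9% passed, 14.7% lower and 5.2% higher. Among the 9225 genes with a mean TPM between those of the lowest and the highest tested member, 22.7% were lower and 4.37% higher.

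**Figure D1:**
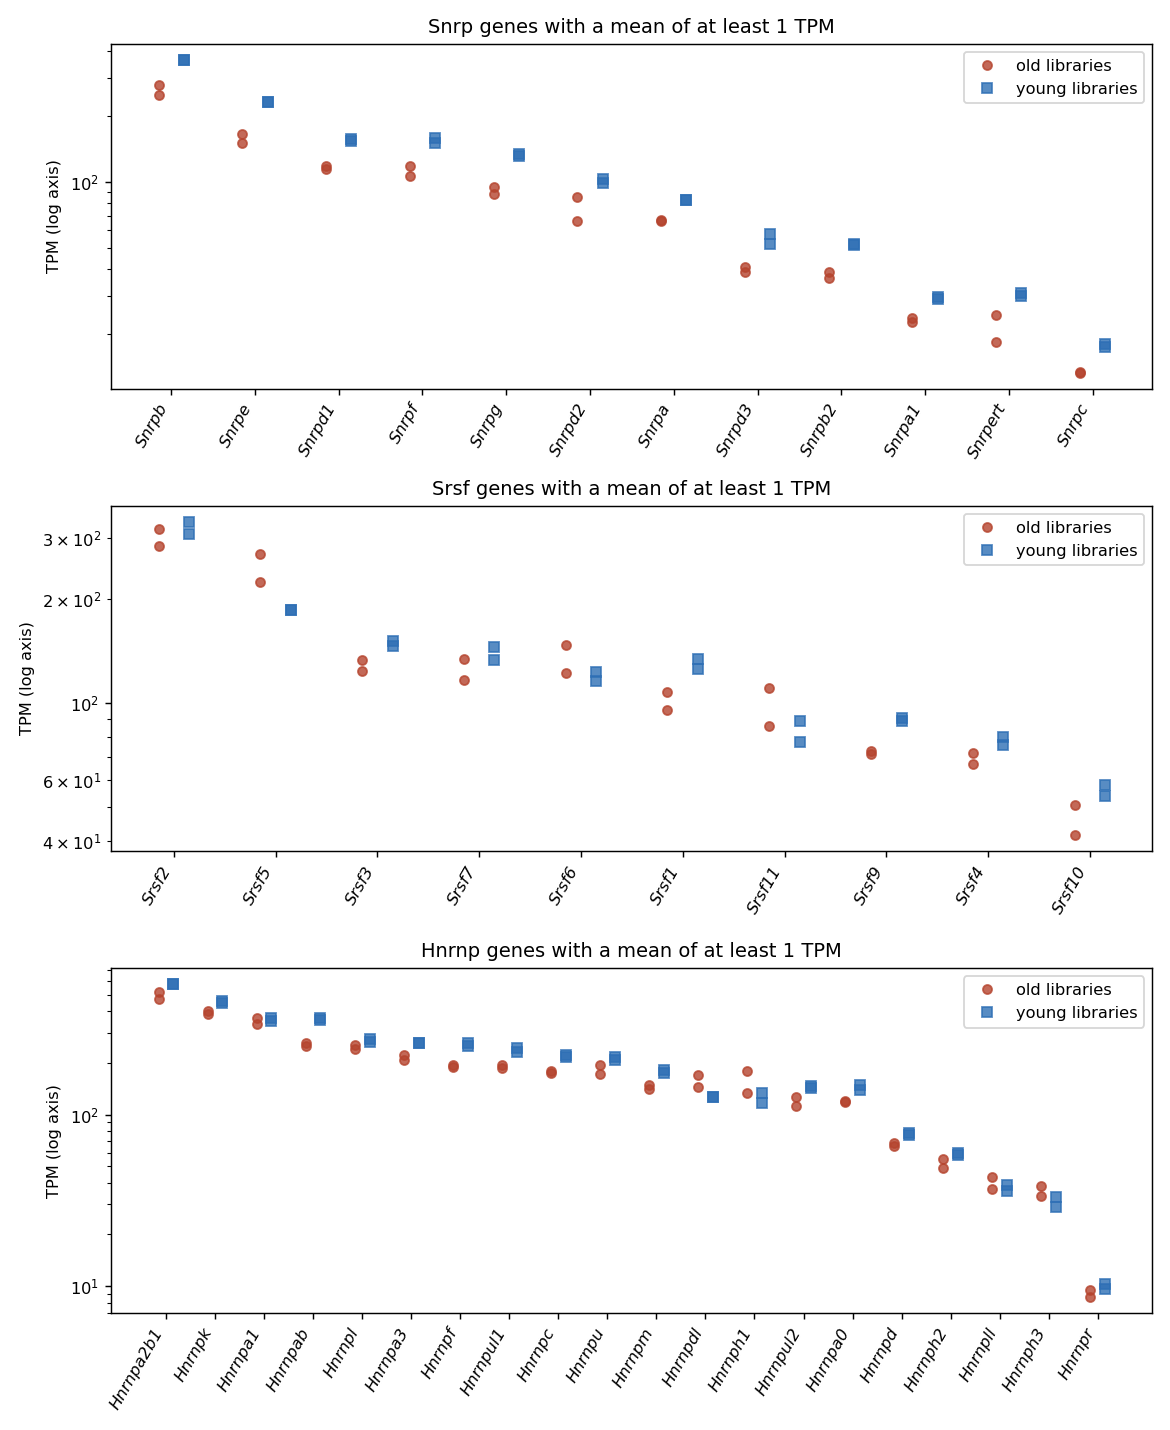
TPM (log axis) of each tested gene of the Snrp, Srsf and Hnrnp families, ordered by mean level, with a circle for each of the 2 old and a square for each of the 2 young libraries. In all 12 Snrp genes both old libraries lie below both young ones, while in the Srsf panel Srsf5 has both old libraries above.

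A few facts of the whole series bear on these values. Of all TPM, 13.3% and 13.1% fell to immunoglobulin genes in old libraries, against 1.03% and 0.896% in young libraries, and under a fixed total this share lowers every other gene in old. Over all genes tested, the median of the log2 changes was -0.10 for the deposited values. It was 0.07 once immunoglobulin genes were removed and the rest rescaled, a shift of over 0.1, so family medians are also given relative to it. The 8 megakaryocyte markers, none of them at 0 and 1 of them lower in old, summed to 879 and 1274 TPM in old and 1545 and 2041 TPM in young libraries, whereas the 8 neutrophil markers, of which 1 rose and 1 fell, summed to 107982 and 107363 TPM in old and 130122 and 124700 TPM in young libraries. How much of any value came from megakaryocytes is therefore not known, and in bulk samples fewer cells of a type and less RNA per cell cannot be told apart. Of all genes tested, 14.7% fell as deposited and 3.15% with immunoglobulin genes removed. Among 8 markers of dividing cells 7 fell, and 5 with immunoglobulin genes removed. Their sums were 1417 and 1332 TPM in old and 2011 and 2075 TPM in young libraries. All 8 erythroid markers fell, or 7 with immunoglobulin genes removed, with sums of 2296 and 2735 TPM in old against 7633 and 7630 TPM in young, 7 of 8 markers of B cells and their precursors fell, with 255 and 242 TPM against 462 and 416 TPM, and 6 of 8 monocyte and macrophage markers fell, or 3 with immunoglobulin genes removed, with 9920 and 10658 TPM against 15292 and 13755 TPM. All 8 plasma cell markers rose, with sums of 40345 and 40802 TPM in old against 2682 and 2450 TPM in young. Their part in the results below was not tested.

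The 10 Snrp genes that fell were 6 of the Sm ring and 4 for U1 and U2 proteins, none rose, and the family had a median log2 change of -0.46. At an unadjusted limma p under 0.05, all 12 were lower and 0 higher. The share of all tested genes at that cutoff was not counted. For lower genes it is at least the 14.7% that passed after adjustment. Counts at an unadjusted p, here and below, thus lack a background. In all 12 both old libraries lay below both young ones, as they did in 46.1% of all genes tested. The 7 Sm ring genes summed to 816 and 901 TPM in old and 1207 and 1183 TPM in young libraries, and 6 of the 7 fell. Snrpb, which encodes the SmB and SmB′ proteins and is the most abundant member of the ring here, was at 251 and 277 TPM in old libraries and at 364 and 364 TPM in young ones. Its log2 change was -0.46 (SE 0.07, limma adjusted p = 0.0219). The old libraries thus lay below the young ones with no overlap, and the pair of young values differed by far less than the old pair.

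Snrpe, a further Sm ring protein, was at 150.3 and 166 TPM in old and 232 and 233 TPM in young libraries. Its log2 change of -0.55 (SE 0.07, limma adjusted p = 0.0168) was the largest among the Snrp genes. Snrpg, which forms a trimer with Snrpe and Snrpf in the ring, was at 88.4 and 94.8 TPM in old and 134 and 132 TPM in young libraries, a log2 change of -0.53 (SE 0.06, limma adjusted p = 0.0150). In both genes the young pair was tight and every old value was lower. Snrpf stood at 107 and 118 TPM in old and 158 and 151 TPM in young, with a log2 change of -0.46 (SE 0.07, limma adjusted p = 0.0242). Snrpd1 was at 115 and 119 TPM in old and 158 and 153 TPM in young, with a log2 change of -0.41 (SE 0.06, limma adjusted p = 0.0192). Snrpd3, which pairs with SmB in the ring, was at 38.7 and 40.6 TPM in old and 57.7 and 52.1 TPM in young, with a log2 change of -0.46 (SE 0.08, limma adjusted p = 0.0253). The ring member that did not pass was Snrpd2, the partner of Snrpd1, at 66.0 and 85.1 TPM in old and 103 and 99.1 TPM in young. Its log2 change was -0.43, close to that of its partners, but the old libraries were far apart (SE 0.13, limma adjusted p = 0.0720).

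All 4 genes for proteins particular to U1 or U2 fell. Snrpa, the U1 protein A, was at 66.6 and 66.1 TPM in old and 82.7 and 82.6 TPM in young libraries, with a log2 change of -0.31 (SE 0.06, limma adjusted p = 0.0263). Snrpc, the U1 protein C that steadies pairing at the 5′ splice site, was at 13.3 and 13.5 TPM in old and 17.5 and 18.0 TPM in young, with a log2 change of -0.38 (SE 0.08, limma adjusted p = 0.0358). Snrpa1 and Snrpb2 encode the U2 proteins A′ and B″. Snrpa1 was at 22.9 and 23.6 TPM in old and 29.6 and 29.2 TPM in young, with a log2 change of -0.32 (SE 0.07, limma adjusted p = 0.0371). Snrpb2 was at 38.4 and 36.4 TPM in old and 51.4 and 51.9 TPM in young, with a log2 change of -0.46 (SE 0.06, limma adjusted p = 0.0202). Replicates of these 4 genes lay close together in both groups.

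The other Snrp genes were of another kind. Snrpert is annotated as a processed pseudogene of Snrpe, with 98.9% identity over 279 bases. It was at 18.4 and 24.6 TPM in old and 30.0 and 30.9 TPM in young libraries, with a limma adjusted p of 0.0683, and its value is uncertain because reads can be shared with Snrpe. Added together, Snrpe and Snrpert were at 169 and 191 TPM in old and 262 and 264 TPM in young libraries. The copy Gm8186 carried more TPM than Snrpg itself, at 99.2 and 113 TPM in old and 147 and 150.5 TPM in young libraries, and the pair summed to 188 and 207 TPM in old and 282 and 282 TPM in young. For both pairs the sums kept the groups apart in the same direction as the coding gene alone. Snrpn, an imprinted SmB relative best known from neurons, was at 0.565 and 0.422 TPM in old and 0.126 and 0.303 TPM in young libraries, below the minimum for testing.

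Once immunoglobulin genes were removed, 2 of 12 Snrp genes passed, Snrpe with an adjusted p of 0.0325 and Snrpg with 0.0304 by limma, where 3.15% of all genes were lower. Over the 13 alternatives the adjusted p ranged from 0.0130 to 0.0963 for Snrpe and from 0.0118 to 0.102 for Snrpg. Under that removal the family median was -0.27, and its difference from the median of all genes was -0.34, against -0.36 as deposited. Rescaling a library by a single factor shifts its genes by about the same log2 amount. That difference could therefore hardly change, and its near-equal values are no test of the result. Median-ratio scaling, which divides each library by the median of its ratios to the geometric mean over libraries, likewise left 2 of 12, Snrpg (limma adjusted p = 0.0466) and Snrpb2 (limma adjusted p = 0.0315, 0.0156 to 0.136 over the alternatives), with a median of -0.40, where 5.6% of all genes were lower. All 12 were below 0 in each of the 13 alternatives run. Those that change only the filter, the prior variance or the block leave the log2 change of every gene as it was. They could therefore not turn the sign of any member, here or below. The Snrp median was -0.41 without young replicate 1 and -0.46 without young replicate 2. It was -0.38 without old replicate 1 and -0.51 without old replicate 2. Over all tested genes the medians were -0.12, -0.07, -0.15 and -0.06 in that order. How many genes of each family passed in these fits is given at the end, beside the counts over all genes. With 1 young library left, the spread within groups comes from the old pair alone and the lone library is assumed to vary like it. For Snrpb the SD was 18.6 TPM in old and 0.0247 TPM in young libraries. Snrpd1, Snrpd3 and Snrpc had the larger SD in young instead, for Snrpd3 4.00 TPM against 1.37 TPM in old. Whether the calls rest on a young library cannot be told from these fits.

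Of 10 tested Srsf genes 1 rose, 2 fell and 7 did not pass. Of all genes tested 5.2% rose and 14.7% fell, and 22.7% fell within the members' range of mean TPM. The 2 falls are thus near the share of all genes. The median log2 change of the Srsf genes was -0.16 as deposited but 0.03 with immunoglobulin genes removed. The old libraries lay wholly below the young ones in 5 of the 10 genes and wholly above in 1, against 46.1% and 21.8% of all genes tested. Srsf5, an SR protein with paired RNA recognition motifs, was at 269 and 224 TPM in old libraries and at 186 and 186 TPM in young ones. Both old values were above both young ones, but the old libraries were further apart than the difference between the lower of them and the young pair. The log2 change was 0.40 (SE 0.10, limma adjusted p = 0.0475), close to the threshold. Removal of immunoglobulin genes gave 0.59 (limma adjusted p = 0.0224, with 8.02% of all genes higher), and median-ratio scaling gave 0.46 (limma adjusted p = 0.0398, with 5.93% of all genes higher). Its adjusted p ranged from 0.00810 to 0.200 over the 13 alternatives, of which 8 kept the call, and the change was positive in each of them. The Srsf5 change was 0.40 without young replicate 1 and 0.40 without young replicate 2, the spread again coming from the old pair alone. It was 0.27 without old replicate 1 and 0.53 without old replicate 2. Srsf5 has a processed copy, Gm12966, at 8.28 and 6.58 TPM in old and 6.78 and 4.44 TPM in young libraries, and adding it left the sums apart, at 277 and 231 TPM in old against 193 and 190 TPM in young.

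Srsf1, the founding member of the family and a regulator of both constitutive and alternative splicing, was at 108 and 95.5 TPM in old and 126 and 134 TPM in young libraries. Its log2 change was -0.35 (SE 0.08, limma adjusted p = 0.0443). Srsf9 was at 71.2 and 72.9 TPM in old and 90.8 and 88.8 TPM in young, with a log2 change of -0.31 (SE 0.06, limma adjusted p = 0.0275). Srsf9 is the closest relative of Srsf1 in the family. Neither passed with immunoglobulin genes removed, where the log2 changes were -0.16 for Srsf1 and -0.13 for Srsf9. Without old replicate 2 they were -0.26 and -0.33, and without old replicate 1 they were -0.44 and -0.30. The ratio of Srsf5 to Srsf1 TPM within a library, which no scaling between libraries can move, was 2.49 and 2.35 in old and 1.48 and 1.39 in young libraries. This ratio was chosen after the values were seen, from a gene that rose and a gene that fell. Its groups therefore had to lie apart, and it adds no support.

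Srsf2, known in humans as a recurrent target of mutation in myeloid neoplasms, was the most abundant family member, at 317 and 284 TPM in old and 309 and 334 TPM in young libraries. The groups overlapped, and its log2 change of -0.10 (SE 0.08) did not pass (limma adjusted p = 0.422). Srsf3 and Srsf7 encode SR proteins that also serve as adaptors for mRNA export. Srsf3 was at 133 and 124 TPM in old and 151 and 146 TPM in young, without overlap but short of the threshold (limma adjusted p = 0.0764), and Srsf7 was at 134 and 117 TPM in old and 133 and 145 TPM in young, with overlap. Srsf4 was at 71.9 and 66.6 TPM in old and 75.8 and 79.7 TPM in young, and Srsf10, which turns into a splicing repressor when dephosphorylated, was at 50.8 and 41.5 TPM in old and 54.0 and 58.1 TPM in young. Neither passed, with limma adjusted p of 0.147 and 0.135. Srsf6 and Srsf11 had positive changes of 0.17 and 0.23 that also did not pass. Srsf6 was at 147 and 122 TPM in old and 116 and 123 TPM in young, and Srsf11 at 111 and 85.7 TPM in old and 77.3 and 88.7 TPM in young. In both, old replicate 1 stood above the other libraries and old replicate 2 lay among the young ones. Srsf12, the least abundant, was at 0.304 and 0.0497 TPM in old and 0.0296 and 0.0611 TPM in young libraries and was not tested.

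Nonsense-mediated decay transcripts are annotated in GENCODE M21 for 9 of the 10 tested Srsf genes, 10 of the 20 Hnrnp genes and 4 of the 11 tested Snrp genes other than the pseudogene. Among 11775 tested protein-coding genes the share was 29.1%. A retained-intron transcript is annotated for 8 Srsf, 14 Hnrnp and 9 Snrp genes, and for 59.4% of all.

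**Figure D2:**
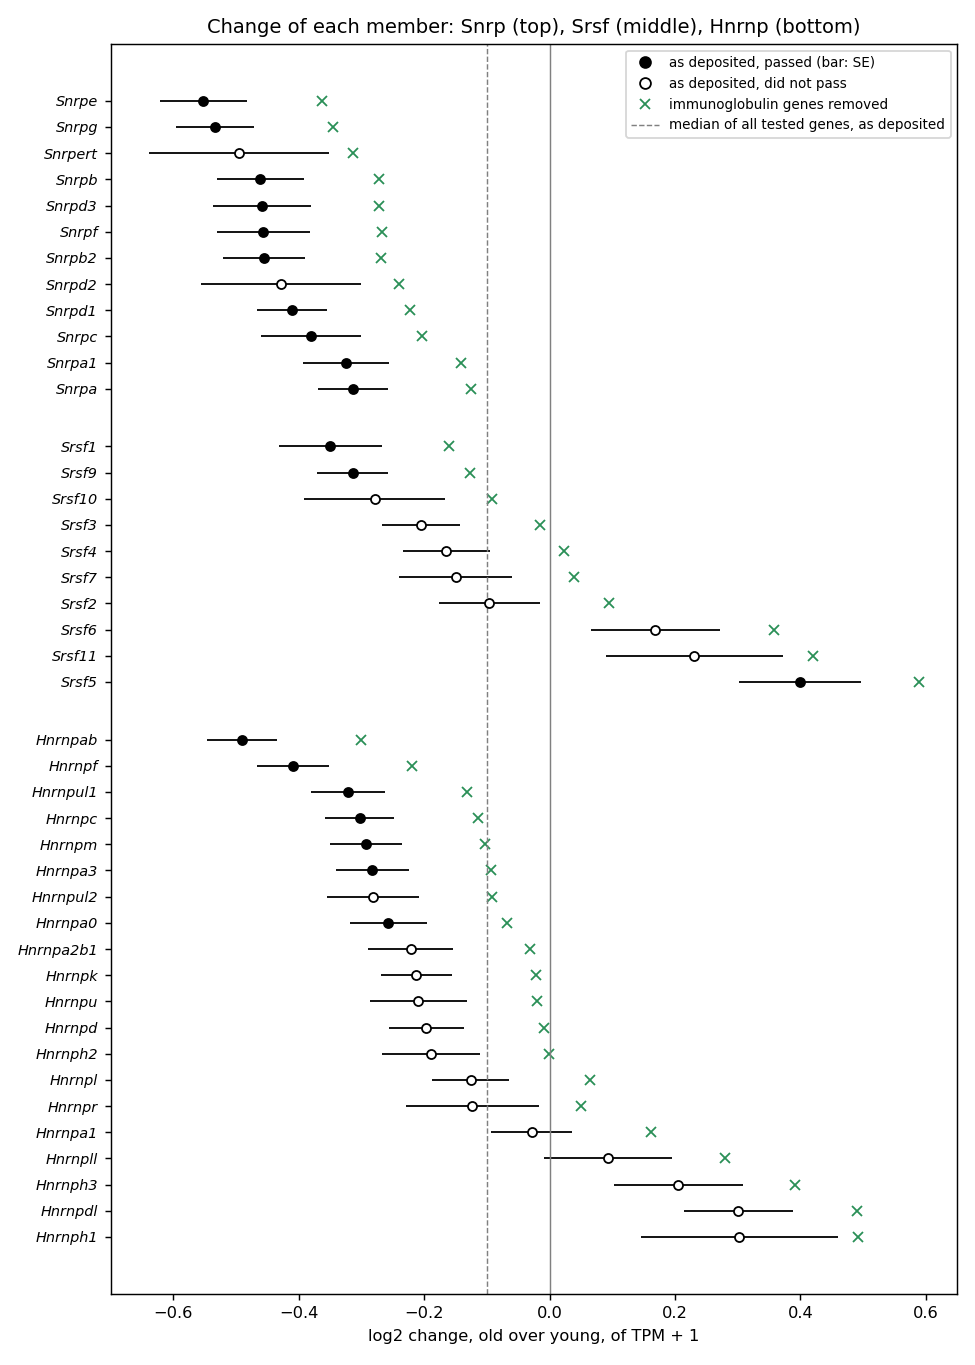
Log2 change of TPM + 1, old over young, of each of the 42 tested genes, with its SE from limma (circles, filled where the adjusted p was under 0.05) and the change with immunoglobulin genes removed (crosses). The Snrp genes all lie left of 0 on both scales, while the Srsf and Hnrnp genes spread to both sides, from -0.49 for Hnrnpab to 0.40 for Srsf5 as deposited.

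Of 20 Hnrnp genes 7 fell and none rose, with a median log2 change of -0.21. Of all genes tested 14.7% fell, and 22.7% of those within the members' range of mean TPM. At an unadjusted limma p under 0.05, 12 Hnrnp genes were lower and 1 higher, again with no count over all genes beside them. Hnrnpab, a protein of the D type that binds AU-rich RNA and single-stranded DNA, was at 253 and 261 TPM in old libraries and at 368 and 356 TPM in young ones. Its log2 change of -0.49 (SE 0.06, limma adjusted p = 0.0145) was the largest of the family, with each pair of libraries close together and the groups well apart. Its relative Hnrnpd, known as AUF1 and as a factor in the decay of AU-rich mRNA, was at 68.7 and 66.0 TPM in old and 76.1 and 78.5 TPM in young (limma adjusted p = 0.0766). The third D-type gene, Hnrnpdl, was at 169 and 145 TPM in old and 127 and 128 TPM in young libraries. Its log2 change of 0.30 (SE 0.09) did not pass as deposited (limma adjusted p = 0.0681), passed with immunoglobulin genes removed at 0.49 (limma adjusted p = 0.0273), and passed under median-ratio scaling at 0.36 (limma adjusted p = 0.0460). Over the 13 alternatives its adjusted p ranged from 0.0156 to 0.275, and the change was positive in each. The ratio of Hnrnpdl to Hnrnpd was 2.47 and 2.20 in old and 1.67 and 1.63 in young libraries, a ratio chosen after the values were seen. Its groups had to lie apart, as both old libraries were higher for Hnrnpdl and lower for Hnrnpd.

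Of the 4 F/H-type genes, whose products bind runs of guanines, 1 fell and 3 did not pass. Hnrnpf fell, at 195 and 190 TPM in old and 263 and 250.04 TPM in young libraries, with a log2 change of -0.41 (SE 0.06, limma adjusted p = 0.0201). It did not pass with immunoglobulin genes removed (limma adjusted p = 0.0659) or under median-ratio scaling (limma adjusted p = 0.0602). Hnrnph1 had a log2 change of 0.30 but a wide error (SE 0.16, limma adjusted p = 0.217), at 180 and 134 TPM in old and 117 and 135 TPM in young. Old replicate 1 alone stood above the young libraries. Hnrnph3 was at 38.1 and 33.6 TPM in old and 28.9 and 33.002 TPM in young, without overlap (limma adjusted p = 0.206), and Hnrnph2 at 54.9 and 48.9 TPM in old and 58.4 and 59.96 TPM in young (limma adjusted p = 0.144). The ratio of Hnrnph1 to Hnrnpf, also chosen after the values were seen, was 0.920 and 0.702 in old and 0.445 and 0.538 in young libraries.

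The A/B-type genes encode abundant proteins that often repress exon inclusion. Hnrnpa3 and Hnrnpa0 fell. Hnrnpa3 was at 222 and 209 TPM in old and 263 and 262 TPM in young, with a log2 change of -0.28 (SE 0.06, limma adjusted p = 0.0343), and it has 26 annotated pseudogene copies of at least 95% identity, 2 of them with a mean over 1 TPM. Hnrnpa0 was at 119 and 121 TPM in old and 149 and 139 TPM in young, with a log2 change of -0.26 (SE 0.06, limma adjusted p = 0.0458). Hnrnpa2b1 was the most abundant of all 44 genes, at 519 and 474 TPM in old and 579 and 579 TPM in young, and did not pass (limma adjusted p = 0.0761). Hnrnpa1, the best studied antagonist of Srsf1, overlapped between groups at 366 and 338 TPM in old and 353 and 364 TPM in young (limma adjusted p = 0.772).

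Hnrnpc, Hnrnpm and Hnrnpul1 were the remaining genes that fell. Hnrnpc, which binds uridine tracts and shields cryptic exons, was at 175 and 180 TPM in old and 222 and 217 TPM in young, with a log2 change of -0.30 (SE 0.05, limma adjusted p = 0.0274). Hnrnpm was at 149 and 142 TPM in old and 175 and 181 TPM in young, with a log2 change of -0.29 (SE 0.06, limma adjusted p = 0.0320). Hnrnpul1, a relative of the nuclear scaffold protein Hnrnpu, was at 194 and 187 TPM in old and 232 and 245 TPM in young, with a log2 change of -0.32 (SE 0.06, limma adjusted p = 0.0282). All 3 had both old libraries below both young ones.

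The remaining Hnrnp genes did not pass. Hnrnpk, which binds C-rich RNA, was at 400.0 and 386 TPM in old and 450.0 and 461 TPM in young (limma adjusted p = 0.0565), and Hnrnpul2 at 126 and 113 TPM in old and 147 and 143 TPM in young (limma adjusted p = 0.0538). Hnrnpu was at 194 and 173 TPM in old and 208 and 216 TPM in young (limma adjusted p = 0.114). In these 3 genes the groups did not overlap. Hnrnpl, which binds CA repeats, was at 256 and 242 TPM in old and 266 and 278 TPM in young, and its relative Hnrnpll, known for the switch of CD45 exons in activated lymphocytes and for its part in plasma cells, at 43.2 and 36.8 TPM in old and 35.7 and 39.1 TPM in young. Their limma adjusted p values were 0.193 and 0.538. Hnrnpr was the least abundant of the 20, at 9.50 and 8.59 TPM in old and 9.54 and 10.3 TPM in young libraries. Over all 20 genes the 2 groups did not overlap in 15 that were lower and 2 that were higher in old, against the same 46.1% and 21.8% of all genes.

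After removal of immunoglobulin genes, Hnrnpab was lower (limma adjusted p = 0.0330, 0.0115 to 0.122 over the alternatives), Hnrnpdl was higher, and the other 18 did not pass, while the family median was -0.02. Under median-ratio scaling 0 Hnrnp genes were lower by limma (7 at an unadjusted p under 0.05) and 1, Hnrnpdl, was higher. The Hnrnp median minus that of all genes was -0.11 as deposited, -0.10 on the median-ratio scale and -0.09 after removal of immunoglobulin genes. For the Srsf genes this difference was -0.06, -0.05 and -0.04 in the same order. As for the Snrp genes, rescaling could hardly change these differences. The Hnrnp median was -0.22 without young replicate 1 and -0.19 without young replicate 2. It was -0.26 without old replicate 1 and -0.16 without old replicate 2. With 1 young library left, the spread again came from the old pair alone.

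Summed over each family, the Snrp genes were at 1021 ± 63.6 TPM in old and 1407 ± 15.5 TPM in young libraries (SD, n = 2 each). The Hnrnp genes summed to 3610 ± 172 TPM in old and 4150 ± 33.6 TPM in young, and the Srsf genes to 1324 ± 127 TPM in old and 1350 ± 45.5 TPM in young (SD, n = 2 each). Ratios between families within a library do not depend on scaling. The Srsf sum over the Snrp sum was 1.45 and 1.16 in old and 0.930 and 0.990 in young libraries, and the Hnrnp sum over the Snrp sum was 3.82 and 3.27 in old and 2.91 and 2.99 in young. The Srsf sum over the Hnrnp sum was 0.379 and 0.354 in old and 0.319 and 0.331 in young. In each ratio the groups did not overlap, though a design of 2 libraries a group allows an exact permutation test no p smaller than 0.333. These ratios too were chosen after the values were seen, and they add no support. Among single genes tested, the groups did not overlap in 46.1% that were lower and 21.8% that were higher in old. Those shares are no background for ratios of sums, for which none was counted. Old replicate 1 lay further from the young libraries than old replicate 2 in each ratio. It was the lower of the 2 old libraries for 10 of 12 tested Snrp genes, but for 1 of 10 Srsf and 3 of 20 Hnrnp genes.

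**Figure D3:**
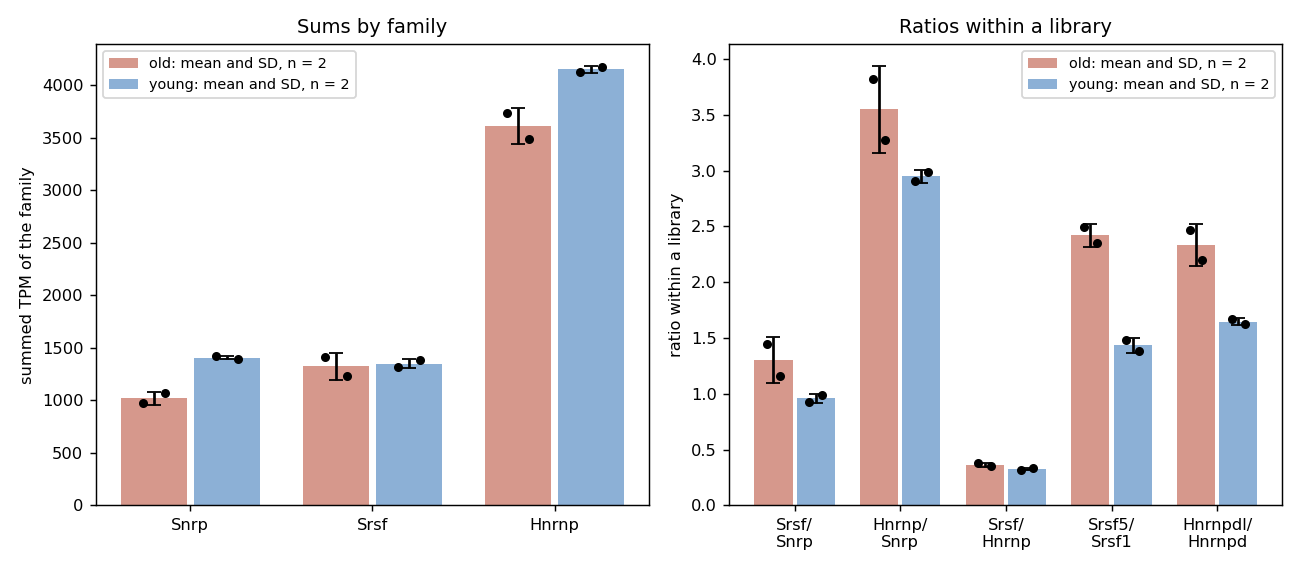
Left, TPM summed over the 13 Snrp, 11 Srsf and 20 Hnrnp genes. Right, ratios between family sums and between single genes within a library. Bars are means of 2 old and 2 young libraries, error bars are SD and points are libraries. The Snrp sum is lower in old, the Srsf sums overlap, and the ratio of Srsf to Snrp is 1.45 and 1.16 in old against 0.930 and 0.990 in young.

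The authors' deposited table of changed genes lists 6 of the 42 genes, all of them among the 20 that passed here. The rest of the 20 are not listed there. In the authors' deposited table Snrpg has a log2 fold change of -0.38 (SE 0.13, adjusted p = 0.00605), Snrpe -0.36 (SE 0.14, adjusted p = 0.0153), Snrpb -0.32 (SE 0.12, adjusted p = 0.0192), Snrpd3 -0.30 (SE 0.13, adjusted p = 0.0473) and Hnrnpab -0.37 (SE 0.11, adjusted p = 0.00169). Srsf5 is the one listed as higher in the authors' deposited table, at 0.33 (SE 0.11, adjusted p = 0.0126). Of the 16073 genes tested here, 4.51% are listed there as lower and 3.16% as higher. All 6 log2 changes are smaller in size there than in the TPM fit, which gave -0.53 for Snrpg and 0.40 for Srsf5. The authors' table covers the same libraries and is no independent repeat.

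Other genes of the splicing pathway were read from lists of known components, and their counts stand against the 14.7% of all tested genes that were lower. Among genes within the families' range of mean TPM this share was 22.7%. For the other scalings no share within that range was counted. Of 10 tested genes for assembly of the Sm ring 5 fell and none rose, with a median log2 change of -0.33. Gemin6, part of the SMN complex that loads the ring onto small nuclear RNA, was at 10.99 and 11.8 TPM in old and 18.1 and 20.1 TPM in young libraries (limma adjusted p = 0.0197). Clns1a, the chaperone that receives newly made Sm proteins, was at 33.1 and 34.7 TPM in old and 45.0 and 44.9 TPM in young (limma adjusted p = 0.0245), and Prmt5, which methylates arginines of Sm proteins, at 34.6 and 35.4 TPM in old and 44.5 and 46.2 TPM in young (limma adjusted p = 0.0262). After removal of immunoglobulin genes 1 of the 10 was lower, where 3.15% of all genes were lower.

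Of 30 tested genes for other proteins of the U1, U4/U6, U5 and minor snRNPs 11 fell and none rose, with a median of -0.29. Snu13, which binds the U4 RNA, was at 48.2 and 49.7 TPM in old and 67.7 and 71.4 TPM in young (limma adjusted p = 0.0172), and Lsm2, part of the ring on U6 RNA, at 37.4 and 38.3 TPM in old and 51.8 and 54.9 TPM in young (limma adjusted p = 0.0191). Eftud2, the GTPase of U5, was at 72.3 and 73.8 TPM in old and 91.4 and 93.5 TPM in young (limma adjusted p = 0.0250). Of 13 genes for recognition of the branch site and 3′ splice site by U2 and its partners 9 fell and none rose, with a median of -0.29. Sf3a3, part of the SF3A complex of U2, was at 59.9 and 61.3 TPM in old and 81.9 and 79.0 TPM in young (limma adjusted p = 0.0211). Its partner Sf3a2 was at 58.2 and 58.8 TPM in old and 75.2 and 77.6 TPM in young (limma adjusted p = 0.0227), and Sf3b6, which contacts the branch point, at 65.7 and 68.7 TPM in old and 92.2 and 86.3 TPM in young (limma adjusted p = 0.0242). With immunoglobulin genes removed, 2 of the 30 and 0 of the 13 were lower by limma, against 3.15% of all genes. At an unadjusted p under 0.05, 5 of the 13 were then lower and 1 higher, against 10 lower and 0 higher as deposited. These counts have no share of all genes beside them, and the rescaling itself moves changes upward.

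Of 10 tested kinases and import receptors that act on SR proteins 0 passed by limma as deposited, and the median log2 change was 0.18. At an unadjusted p under 0.05, 5 were higher, a count with no share of all genes beside it. Clk1, a nuclear kinase that releases SR proteins from speckles, was at 84.9 and 62.4 TPM in old and 44.2 and 54.7 TPM in young libraries, a log2 change of 0.56 (SE 0.18, limma adjusted p = 0.0832). Tnpo3, which imports SR proteins into the nucleus, was at 52.2 and 47.7 TPM in old and 56.0 and 56.0 TPM in young (limma adjusted p = 0.158). With immunoglobulin genes removed 4 of the 10 were higher, which were Clk1, Clk2, Clk3 and Srpk2, against the 8.02% of all genes given above. Their limma adjusted p values were then 0.0464, 0.0354, 0.0354 and 0.0482 in that order, and 0.0552, 0.0390, 0.0464 and 0.0547 under median-ratio scaling. Of 30 tested SR-like and other regulators 5 fell and none rose, with a median of -0.01. That share is near the 14.7% of all tested genes that were lower. It is below the 22.7% within the families' range of mean TPM. Pcbp1, which binds C-rich RNA, was at 225 and 240 TPM in old and 317 and 314 TPM in young (limma adjusted p = 0.0190), Raly, a relative of Hnrnpc, at 222 and 235 TPM in old and 301 and 309 TPM in young (limma adjusted p = 0.0202), and Ptbp1, the polypyrimidine tract binding protein, at 236 and 240.0 TPM in old and 279 and 289 TPM in young (limma adjusted p = 0.0384). Once immunoglobulin genes were removed 0 of this list passed by limma. At an unadjusted p under 0.05, 2 of 31 were then lower and 10 higher, against 10 lower and 3 higher of 30 as deposited. These counts have no share of all genes beside them. That removal moved the median of all genes from -0.10 to 0.07, so some turn from lower to higher follows from the rescaling itself.

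**Figure D4:**
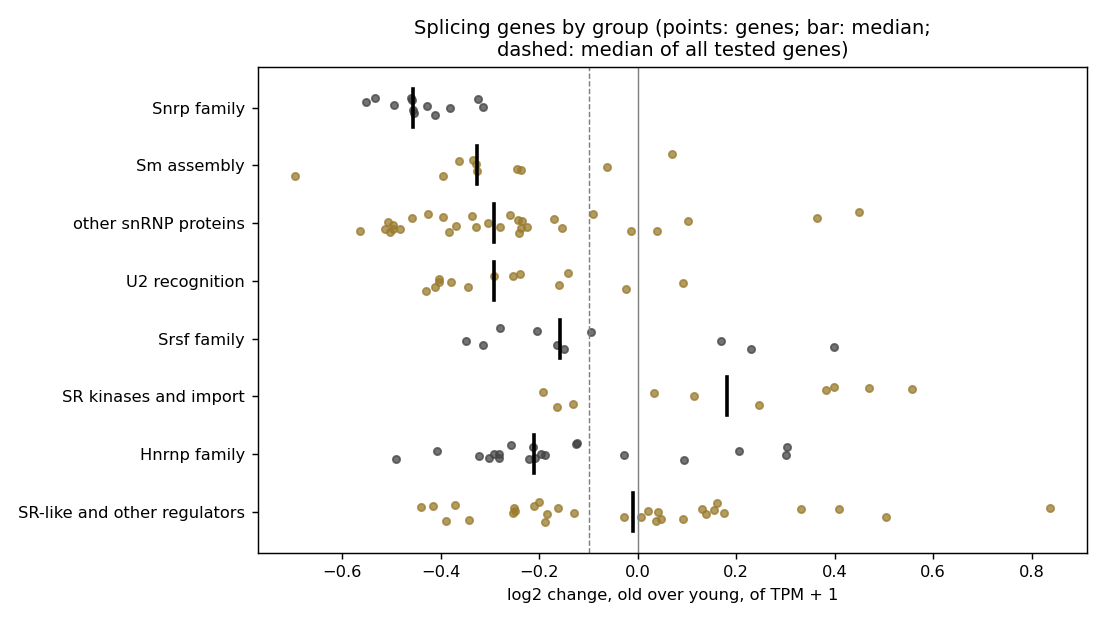
Log2 change of TPM + 1, old over young, of each tested gene (points) in the 3 families and in 5 other lists of splicing genes, with the median of each as a bar and the median of all tested genes, -0.10, as a dashed line. Medians run from -0.46 for the Snrp family to 0.18 for SR kinases and import receptors.

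Transcript length differed between the families and moved with the change over all genes, which was looked at after the values were seen. The longest annotated protein-coding transcript had a median of 1161 bases for the 11 Snrp genes, 2510.5 bases for the Srsf genes and 2908.5 bases for the Hnrnp genes, against 3044 bases for all. Of 11774 tested protein-coding genes outside the immunoglobulin loci, the 688 with less than 1000 bases had a median log2 change of -0.31 and 33% of them fell. The median was -0.19 for 2455 genes from 1000 to 2000 bases, -0.13 for 4777 genes from 2000 to 4000 bases and -0.09 for 3854 longer genes, of which 9.81% fell. All 11 Snrp genes had changes below the median of the genes in their length class. Srsf5, at 1568 bases and 0.40, lay above its class. The part of length in these results was not tested.

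**Figure D5:**
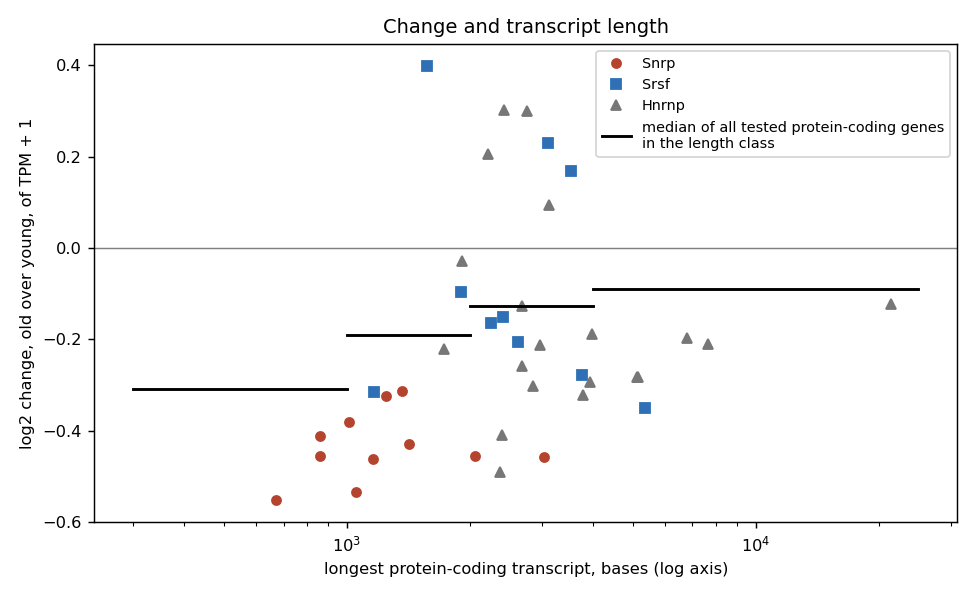
Log2 change of TPM + 1, old over young, against the length of the longest protein-coding transcript (log axis) for each Snrp, Srsf and Hnrnp gene, with the median of all tested protein-coding genes in 4 length classes as bars. The class medians run from -0.31 below 1000 bases to -0.09 at 4000 bases and more, and the Snrp genes cluster at the lower left.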

How the data were processed

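RNA of 2 old and 2 young megakaryocyte libraries was sequenced after poly(A) selection with strand-specific libraries, per the labels' protocols. The deposited table gives TPM per gene, computed by the authors, and TPM sums to a fixed total, so depth is unknown and no counting interval can be given. A second deposited table lists genes the authors called changed, with a mean normalized count signal, log2 fold changes, p-values and a log10 scale of them. The submitters' processing notes name TopHat, Trim Galore, STAR and DESeq2 and the builds mm9 and GRCm39, without their roles. Every per-sample column was used (0 left out).

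From the TPM, log2(TPM + 1) was compared with limma 3.58.1 in R 4.3.3, with a trended prior variance, over genes that averaged 1 TPM or more. Old and young came from the labels. P-values were adjusted by Benjamini-Hochberg over all genes tested, and the code was tested on simulated data. Alternatives were another pseudocount (0.1), other filters on low values (none, or a mean of at least 5 TPM), median-ratio scaling, immunoglobulin genes removed, a constant prior variance, a replicate block and leaving out each library. All 44 genes were named; from the other lists, up to 3 that passed with the smallest p, or, with none, the 2 of highest mean. Members and lists were chosen with earlier results of these data known. Promoters came from RefSeq on GRCm38.p6, and transcripts and pseudogenes from GENCODE M21 on GRCm38. Pseudogene copies were found with blastn 2.17.0 (at least 95% identity, 200 bases and 50% of the copy). Protein sequences were not analysed here. Transcript classes, lengths, copies, ratios within a library and the sequences shown were chosen after seeing the data. Plots used matplotlib 3.10.9.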

Additional observations from a re-analysis of the deposited data

How the results depend on the processing

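Each call rests on 2 libraries a group, and TPM keeps no depth. Leaving out 1 library at a time gave 255 to 734 higher and 98 to 1766 lower genes over all, 0 to 9 lower Snrp genes with a family median of -0.51 to -0.38, 0 to 1 higher and 0 to 3 lower Srsf genes, and 0 to 1 higher and 0 to 10 lower Hnrnp genes. The counts of 0 in both directions came without young replicate 1 and without young replicate 2, where the spread comes from the old pair alone and the lone young library is assumed to vary like it. Where an old library was left out, it comes from the young pair. With no filter on low values there were 71 higher and 59 lower genes over all, a median of 0.00414, and 0 members passed by limma in either direction. At an unadjusted p under 0.05 that fit had 12 Snrp, 3 Srsf and 11 Hnrnp genes lower, and 1 Srsf and 1 Hnrnp gene higher. A constant prior variance gave 309 higher and 263 lower genes and likewise 0 members, with 12 Snrp, 2 Srsf and 9 Hnrnp genes lower and 1 Srsf and 1 Hnrnp gene higher unadjusted. Median-ratio scaling gave 900 lower genes over all, 2 lower Snrp, 0 lower Srsf, and 0 lower and 1 higher Hnrnp genes with a median of -0.15. With immunoglobulin genes removed there were 1295 higher and 508 lower genes with a median of 0.070, 2 lower Snrp genes with a median of -0.27, 0 lower Srsf genes with a median of 0.031, and 1 higher and 1 lower Hnrnp gene with a median of -0.021. That shift follows from the rescaling itself. For the other settings the cause was not tested. Signs turned round for Srsf2 (0.094), Srsf7 (0.039), Srsf4 (0.023), Hnrnpa1 (0.16), Hnrnpl (0.064) and Hnrnpr (0.050) under that removal, for Hnrnpa1 (0.032) under median-ratio scaling and without old replicate 2, and for Hnrnpll without old replicate 1, none of which had passed. Leaving out 1 library at a time gave -0.086 to 0.029 for Hnrnpa1 and -0.019 to 0.21 for Hnrnpll. Settings that change only the filter, the prior variance or the block could not turn a sign. Over the 13 alternatives, 361 of 546 member values kept direction and side of the threshold, 151 lost the call, 19 gained one and 15 turned round. These values pool the 20 members that had passed with those that had not. All 151 losses came from the 20, as only they had a call to lose. A member that had not passed kept its side by staying short of the threshold. The 361 therefore do not measure how stable the calls were.

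Libraries with the same replicate number deviated from their group means with r = -0.15 across 16073 genes. With 2 libraries a group, the crossed numbers had to give r = 0.15. These values therefore cannot decide whether the numbers pair the samples, and the main fit used no pairing. With a replicate block there were 496 higher and 756 lower genes over all, 6 lower Snrp genes, 0 lower and 0 higher Srsf genes by limma (3 lower and 1 higher at an unadjusted p under 0.05) and 2 lower Hnrnp genes. A block with the numbers crossed, added after seeing the data, gave 1498 higher genes over all, 12 lower Snrp genes and 2 higher Hnrnp genes. The crossed numbers are those with the positive r, so these counts add no support. The replicate block with immunoglobulin genes removed, also added later, gave 400 lower genes with a median of 0.070, 2 lower Snrp genes with a median of -0.27, 0 lower Srsf genes with a median of 0.031, and 1 higher and 0 lower Hnrnp genes with a median of -0.021, with the same 6 signs turned round as without the block.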
